A study of Mus musculus with 10 samples.

Results

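The collagen genes of mouse meningioma-like tumors were described here, namely every gene whose symbol is COL, a number, A and a number. The deposited tables held 43 such genes of 16895, and 42 of them passed the filter on low values. They were placed by the structure of their proteins into fibrillar collagens (11 genes), basement membrane collagens (6), FACITs (9), network collagens (3), beaded filament collagens (5), transmembrane collagens (4), multiplexins (2) and COL7A1, COL26A1 and COL28A1 (3), of which COL7A1 makes anchoring fibrils and the other members have no shared class. COL21A1 and COL6A4 were not analysed here.

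RNA was measured by poly(A)-selected stranded sequencing in 3 NLS-2SA-YAP1 tumors, driven by a constitutively active YAP1, and 7 YAP1-MAML2-v2 tumors, driven by a fusion of YAP1 with MAML2. By source region the NLS-2SA-YAP1 tumors were extra axial (replicate 1) and extra cranial (replicates 2 and 3), and the YAP1-MAML2-v2 tumors were extra axial (replicates 2 and 6), extra cranial (replicates 1, 3, 4 and 5) and intra ventricular (replicate 7). All were untreated tumors of Nestin/tv-a Cdkn2a null mice, made by placing avian DF1 cells that carried the RCAS vector in the subarachnoid space at p0-p3, so every group shares the loss of Cdkn2a, and Nestin control of the tv-a receptor limits which host cells the virus can enter. The labels give the cell type as DF1, the producer line, while the values are for mouse genes of tumor tissue. No tissue without a tumor was analysed here, and nothing says whether the tumors came from separate animals, so p-values measure only the spread between these samples.

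Levels are CPM (the usual depth-scaled counts) after TMM scaling of the deposited estimated counts, and levels of single genes are ranked as CPM per kilobase of transcript, except that shares of collagen CPM, within a library or by class, are not adjusted for length. Library totals were 28001143 to 44544314, which are not depths. For 6 members (COL2A1, COL8A2, COL9A1, COL10A1, COL19A1 and COL20A1) the deposited value was 0 or 1 in at least 1 library yet exceeded 100 elsewhere, so their fitted folds, which are plotted and counted by sign with the rest, are not given singly. All 11 meningeal fibroblast markers examined were in the tables, and their summed level was 6753 to 10015 CPM in NLS-2SA-YAP1 tumors, against 2917 to 10549 CPM in YAP1-MAML2-v2 tumors; of the fusion tumors, replicate 5 had a listed 0 for PTGDS and replicate 4 for FOXD1. The deposited names of YAP1-MAML2-v2 replicates 6 and 7 share an identifying number of unstated meaning, so those tumors may not be independent.

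Collagens are trimers of alpha chains wound into a triple helix. Chains of types I, III and V assemble into the striated fibrils of connective tissue, type IV chains form the sheet of basement membranes, type VI forms beaded filaments around cells, and FACITs sit on the surface of fibrils. In the meninges, fibroblasts of the dura, arachnoid and pia lay down this matrix, and meningiomas of fibroblastic type are known for abundant collagen. Many trimers need chains from different genes, so the levels of partner chains were also compared.

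Collagen genes held 0.542% to 2.997% of the deposited counts of a library. The share was 1.00%, 2.67% and 2.92% in NLS-2SA-YAP1 replicates 1, 2 and 3. In YAP1-MAML2-v2 tumors it had a median of 1.23%, with the lowest share in the intra ventricular tumor and the highest in extra axial replicate 2. The groups overlapped.

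Fibrillar genes made up most of the collagen signal in 9 of 10 libraries. Their share of all collagen CPM was 74.3%, 81.3% and 83.5% in the 3 NLS-2SA-YAP1 libraries, against 41.5% to 77.8% in the YAP1-MAML2-v2 libraries. The exception was YAP1-MAML2-v2 replicate 5, where beaded filament genes held 49.3%. The beaded filament share was also high in YAP1-MAML2-v2 replicate 6 (33.0%), while in the intra ventricular tumor it was 3.01%. Basement membrane genes reached their highest shares, 8.53% and 5.74%, in the intra ventricular tumor and in YAP1-MAML2-v2 replicate 3. Their summed level in the intra ventricular tumor, 481 CPM, was within the 162 to 1449 CPM of the others, and its total of all collagen was the lowest. In replicate 3 the level was the highest, at 1449 CPM.

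**Figure D1:**
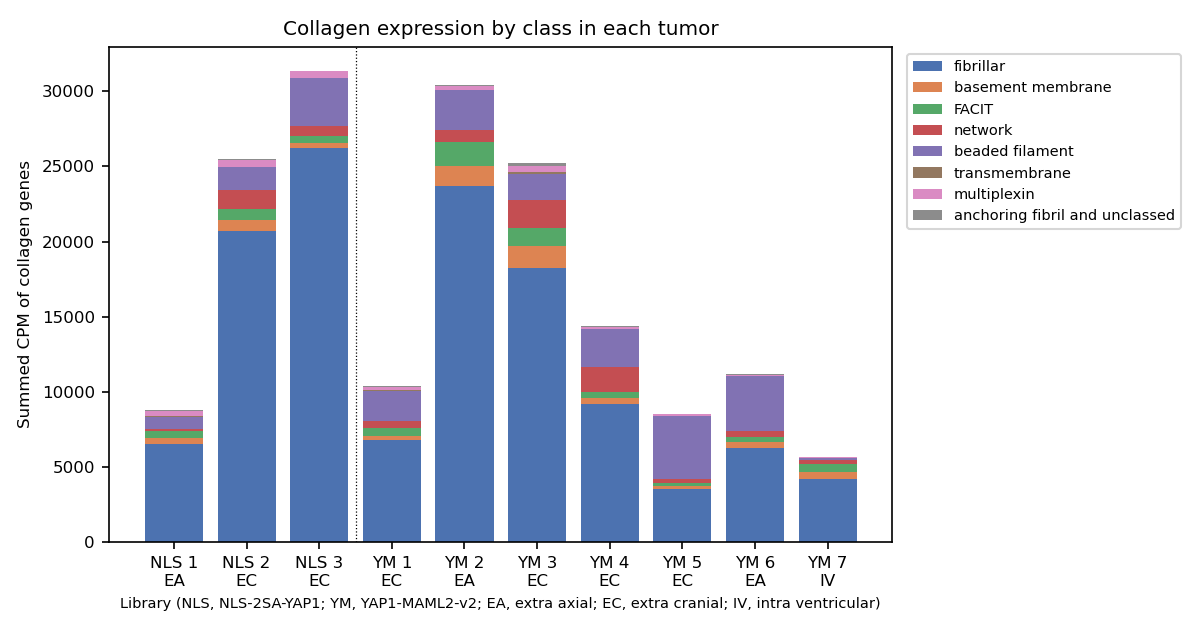
Summed CPM (linear axis) of the collagen genes of each class in each library, with the NLS-2SA-YAP1 libraries left of the dotted line and the YAP1-MAML2-v2 libraries right of it. The lowest total is 5639 CPM, in the intra ventricular tumor (YM 7), the highest is 31390 CPM, in NLS-2SA-YAP1 replicate 3, and the beaded filament segment is the longest in YM 5.

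The summed fibrillar level averaged 17818 ± 10177 CPM in NLS-2SA-YAP1 tumors (SD, n = 3) and 10269 ± 7700.3 CPM in YAP1-MAML2-v2 tumors (SD, n = 7), so the means differed by less than the spread. The summed multiplexin level was 335.5, 446.6 and 428.5 CPM in NLS-2SA-YAP1 tumors, against 10.4 to 363.9 CPM in YAP1-MAML2-v2 tumors, where only replicate 3 lay above the lowest NLS-2SA-YAP1 value. The transmembrane sum was 36.7, 24.8 and 56.2 CPM in NLS-2SA-YAP1 tumors, against 7.24 to 22.9 CPM in 6 YAP1-MAML2-v2 tumors and 124.5 CPM in replicate 3. Basement membrane, FACIT and network sums overlapped between the constructs.

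No collagen gene passed an adjusted p under 0.05 in edgeR's quasi-likelihood test between the constructs (0 of 42, where 0.0146% of all genes tested passed). At an unadjusted p under 0.05 there were 7 of 42 members, against 13.1% of all genes tested. COL26A1, COL4A5, COL16A1 and COL18A1 had higher fitted levels in NLS-2SA-YAP1 tumors (4 of 42, against 5.51% of all genes), and COL4A3, COL22A1 and COL25A1 had lower ones (3 of 42, against 7.57%). The median log2 fold change (NLS-2SA-YAP1 minus YAP1-MAML2-v2) was -0.33 over the members and -0.03 over all genes tested. DESeq2, run as an alternative, called 6 of those 7 (all but COL18A1), where it called 4.92% of all genes, while limma-voom with quality weights and limma on log2 CPM called 0 members, where they called 0.708% and 0.0438% of all genes. edgeR with a replicate block or without the region term also called 0 members, against 0.409% and 0.0219% of all genes. Only COL26A1, higher, and COL25A1, lower, had values that did not overlap between the constructs, against 3.73% of all genes that were higher, 3.01% that were lower and 6.74% in either direction.

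**Figure D2:**
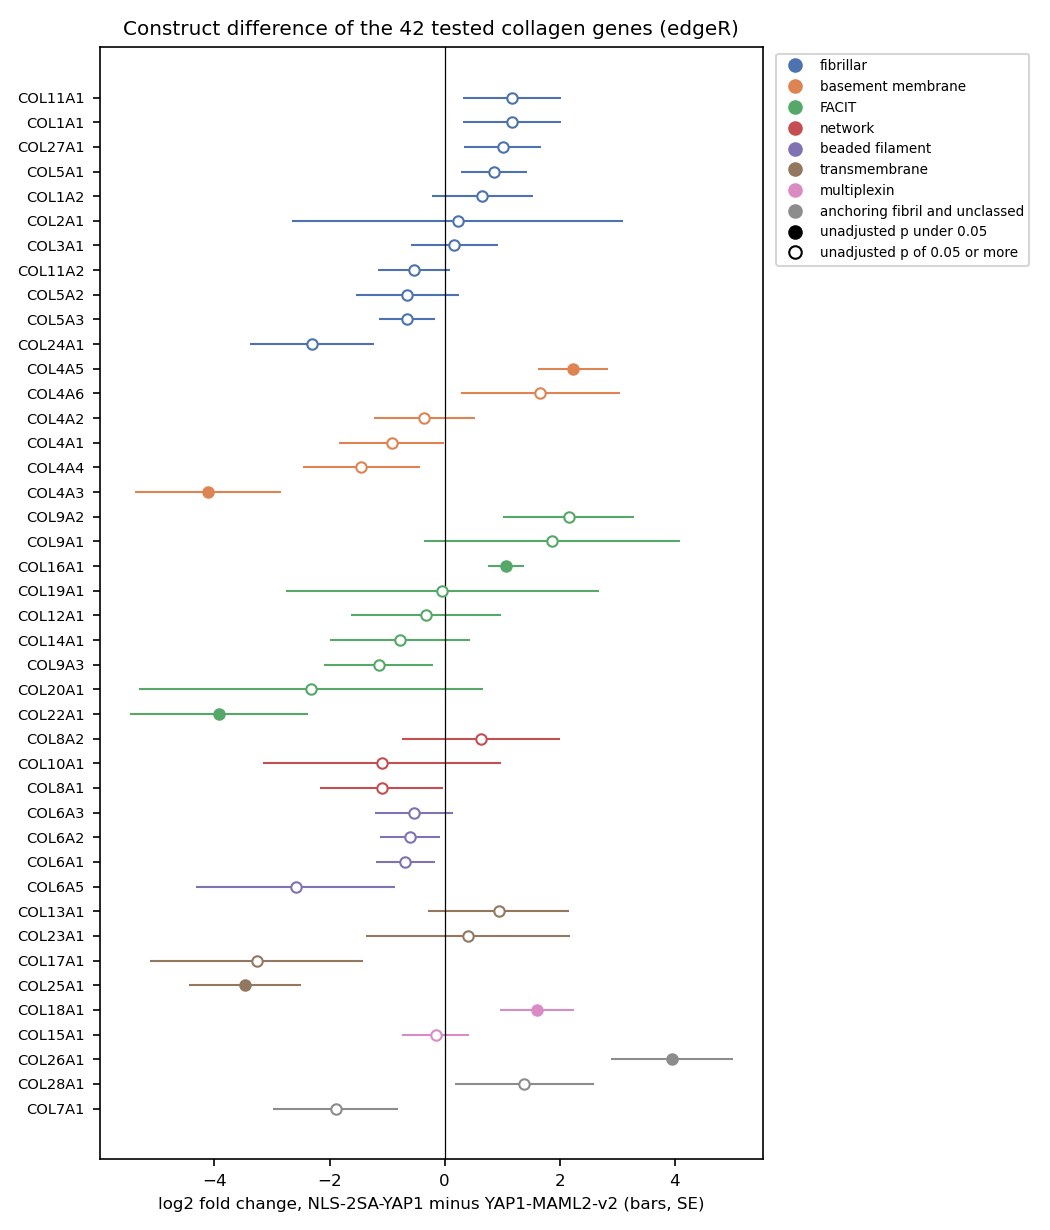
log2 fold change of each tested collagen gene (NLS-2SA-YAP1 minus YAP1-MAML2-v2, horizontal axis) from edgeR with its SE as a bar, ordered by class and coloured by class; filled points have an unadjusted p under 0.05. The 7 filled points run from COL4A3 at -4.12 to COL26A1 at 3.95, and no member had an adjusted p under 0.05.

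Marker sums of other cells were set beside the constructs, and their part in any collagen difference was not tested. The meningeal fibroblast sum given above was lower in 6 of 7 YAP1-MAML2-v2 libraries than in all 3 NLS-2SA-YAP1 libraries, but OGN carried this, with 4575, 4538 and 4968 CPM in NLS-2SA-YAP1 tumors, against 244 to 2372 CPM in YAP1-MAML2-v2 tumors. The other 10 markers summed to 5440, 2215 and 2325 CPM in NLS-2SA-YAP1 tumors, against 1198 to 10063 CPM in YAP1-MAML2-v2 tumors, and SLC6A13, TBX18 and ALDH1A2 had negative fitted folds. The summed level of 12 skeletal muscle markers was 10.6 to 480.7 CPM in NLS-2SA-YAP1 tumors, against 2.40 to 112.1 CPM in YAP1-MAML2-v2 tumors, with MYH4 listed at 0 in 6 libraries. It was high in extra cranial NLS-2SA-YAP1 tumors and YAP1-MAML2-v2 replicate 3, and the groups overlapped. The sum of 8 choroid plexus and ependyma markers was 136.7 to 434.7 CPM with NLS-2SA-YAP1 and 26.7 to 228.2 CPM with YAP1-MAML2-v2, carried by AQP1 and CLIC6, while the choroid plexus gene TTR was listed at 0 in all 3 NLS-2SA-YAP1 libraries. In bulk tissue, fewer cells of a type and less RNA per cell cannot be told apart.

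Between extra axial and extra cranial tumors no member passed by edgeR either (0 of 42 at an adjusted p under 0.05, where the share of all genes was 0.0%), and 0 of 42 had an unadjusted p under 0.05, against 3.03% of all genes (0.992% higher and 2.04% lower). DESeq2 and a replicate block in edgeR called 0 members there, against 0.226% and 0.117% of all genes. No member's values were separated by region, against 0.868% of all genes (0.35% higher and 0.518% lower). The median log2 fold change (extra axial minus extra cranial) was -0.21 over the members and -0.02 over all genes tested.

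The spread of collagen genes between tumors was wide. The SD of log2 CPM over the 10 libraries had a median of 1.90 over the 42 tested members and 0.817 over all 13707 genes tested. COL16A1, a FACIT that joins fibrils to cells and microfibrils, was the steadiest, with a 3.74-fold range of CPM. COL3A1 had a 5872-fold range, set by its level in the intra ventricular tumor.

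Type I collagen genes led. COL1A2 had the highest mean level, 1024 ± 830 CPM per kilobase (SD, n = 10), followed by COL1A1 at 534 ± 504, COL3A1 at 430 ± 304, COL6A2 at 283 ± 166 and COL6A1 at 186 ± 99.6 CPM per kilobase. COL8A1, COL9A3 and COL11A1 came next at 131, 82.0 and 77.5 CPM per kilobase. Neighbours in this order differed by less than their SDs, but SDs between libraries do not measure the order within a library. By transcript length the ratio of COL1A1 to COL1A2 was at most 0.734 in any library. That of COL6A1 to COL6A2 was at most 0.959. With lengths from the union of annotated exons COL1A1 ranked above COL1A2 and COL6A1 above COL6A2.

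**Figure D3:**
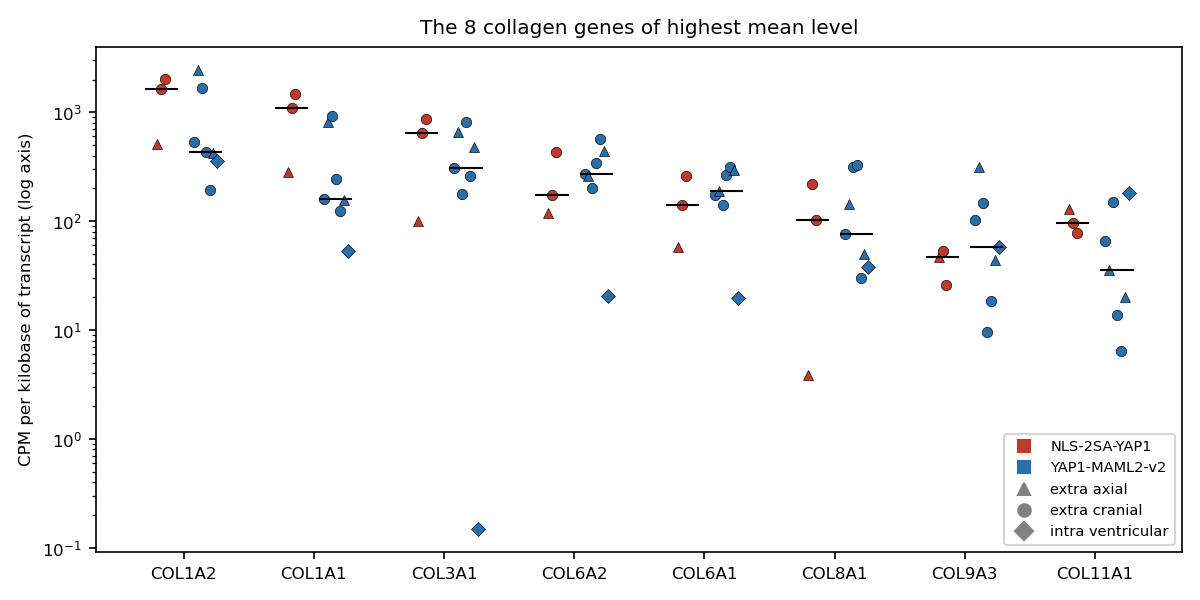
CPM per kilobase of transcript (log axis) in every library for the 8 collagen genes of highest mean level, NLS-2SA-YAP1 (red) left of YAP1-MAML2-v2 (blue), with the median as a line and the region as the marker shape. The intra ventricular tumor is lowest for COL1A1, COL3A1, COL6A2 and COL6A1 and highest for COL11A1, and NLS-2SA-YAP1 replicate 1 is lowest for COL8A1.

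COL1A2, the second chain of type I collagen, had 2718, 8807 and 10799 CPM in NLS-2SA-YAP1 tumors. Across the 7 YAP1-MAML2-v2 tumors the lowest, median and highest level was 1043, 2329 and 13089 CPM. Its log2 fold change was 0.66 (SE 0.88, adjusted p 0.808 by edgeR) and the groups overlapped fully. COL1A1, the first chain, had 1673, 6522 and 8788 CPM in NLS-2SA-YAP1 tumors. The YAP1-MAML2-v2 tumors ran from 317 to 5505 CPM, with a median of 942 CPM. It was at 4806 CPM or more in extra cranial NLS-2SA-YAP1 tumors and in YAP1-MAML2-v2 replicates 2 and 3 and at 1673 CPM or less in the rest, and its log2 fold change was 1.16 (SE 0.85, adjusted p 0.600 by edgeR).

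COL3A1, whose homotrimer forms thin fibrils beside type I, had 556, 3586 and 4802 CPM in NLS-2SA-YAP1 tumors. With YAP1-MAML2-v2 the lowest value was 0.818 CPM, the median 1725 CPM and the highest 4498 CPM. It held the largest share of collagen CPM in YAP1-MAML2-v2 replicates 4 and 6, at 31.4% and 24.0%, and COL1A2 held it in 7 other libraries. Its log2 fold change between constructs was 0.16 (SE 0.75, adjusted p 0.960 by edgeR), and it was -0.33 without NLS-2SA-YAP1 replicate 3. Between regions COL1A2 had a log2 fold change of 0.30 (SE 0.88), COL1A1 of -0.25 (SE 0.87) and COL3A1 of -0.24 (SE 0.76), extra axial minus extra cranial, each with an edgeR adjusted p of 1.0. Without YAP1-MAML2-v2 replicate 2 the region values were -1.21 for COL1A2 and -1.63 for COL1A1.

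Type V collagen sets the width of type I fibrils. COL5A1 had 289, 515 and 670 CPM in NLS-2SA-YAP1 tumors, against 16.4 to 488 CPM in YAP1-MAML2-v2 tumors. COL5A2 had 123, 450 and 388 CPM in NLS-2SA-YAP1 tumors, against 76.6 to 1223 CPM in YAP1-MAML2-v2 tumors. Both overlapped. The remaining type V gene, COL5A3, had 11.9, 22.9 and 28.3 CPM in NLS-2SA-YAP1 tumors, against 1.05 to 74.3 CPM in YAP1-MAML2-v2 tumors.

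COL11A1, COL11A2 and COL2A1 encode the fibril chains of cartilage, and COL11A1 is also made by stromal fibroblasts of tumors. COL11A1 had 989, 738 and 592 CPM in NLS-2SA-YAP1 tumors. The fusion tumors had a median of 271 CPM, a lowest value of 49.0 CPM and a highest of 1382 CPM. The low values were in replicates 4, 5 and 6, and the log2 fold change was 1.17 (SE 0.86, adjusted p 0.603 by edgeR). COL2A1 was listed at 0 in NLS-2SA-YAP1 replicate 2 and replicate 5 of the fusion group, was at most 0.0279 CPM in YAP1-MAML2-v2 replicates 4 and 6, and had 48.0 to 367 CPM in the other 6 libraries.

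Of the remaining fibrillar genes, COL24A1 had 1.10, 0.239 and 3.70 CPM in NLS-2SA-YAP1 tumors. Across the 7 YAP1-MAML2-v2 tumors the lowest, median and highest level was 0.0467, 6.25 and 15.6 CPM. Its highest levels were in YAP1-MAML2-v2 replicates 5 and 6 and the groups overlapped, with a log2 fold change of -2.30 (SE 1.07, adjusted p 0.398 by edgeR). COL27A1, a fibrillar collagen of developing cartilage, ranged from 8.12 to 87.4 CPM, highest in NLS-2SA-YAP1 replicate 2. Of the 11 fibrillar genes, 7 had a positive log2 fold change between constructs and 2 between regions, and none had an unadjusted p under 0.05.

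The 3 chains common to most type VI collagen are made from COL6A1, COL6A2 and COL6A3. COL6A2 had 469, 691 and 1697 CPM in NLS-2SA-YAP1 tumors. The YAP1-MAML2-v2 tumors ran from 81.6 to 2249 CPM, with a median of 1079 CPM. The lowest value was the intra ventricular one, and in YAP1-MAML2-v2 replicate 5 COL6A2 held the largest share of collagen CPM, at 26.4%. COL6A1 had 239, 580 and 1074 CPM in NLS-2SA-YAP1 tumors, against 81.2 to 1290 CPM in YAP1-MAML2-v2 tumors, again lowest in the intra ventricular tumor. The log2 fold changes were -0.60 (SE 0.52, adjusted p 0.673 by edgeR) for COL6A2 and -0.68 (SE 0.51, adjusted p 0.610 by edgeR) for COL6A1. Between regions they were -0.38 (SE 0.51) and -0.42 (SE 0.50), both with an edgeR adjusted p of 1.0.

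COL6A3, the long chain that completes the trimer, had 102, 236 and 334 CPM in NLS-2SA-YAP1 tumors, against 6.40 to 860 CPM in YAP1-MAML2-v2 tumors. In extra axial tumors it had 102, 860 and 535 CPM, against a lowest, median and highest level of 89.0, 285 and 379 CPM in extra cranial tumors (log2 fold change 0.76, SE 0.67, adjusted p 1.0 by edgeR). COL6A5, a chain of similar build with restricted expression, had 6.97, 3.45 and 38.7 CPM in NLS-2SA-YAP1 tumors, against 0.514 to 288.5 CPM in YAP1-MAML2-v2 tumors. It was at 288.5 and 174 CPM in YAP1-MAML2-v2 replicates 5 and 6, and below 73 CPM elsewhere. COL6A6, which did not pass the filter, had its highest values in the same libraries, at 2.27 and 1.04 CPM, and was below 0.13 CPM in the other 8. All 4 tested beaded filament genes had a negative log2 fold change between constructs (median -0.64) and none had an unadjusted p under 0.05.

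Type IV collagen comes from gene pairs that lie head to head, each pair sharing the stretch between its starts. COL4A1 and COL4A2, the chains of nearly every basement membrane, overlap at their starts on chromosome 8. COL4A3 and COL4A4, which with COL4A5 form the network of the kidney filter and a few other sites, start 71 bases apart on chromosome 1, and COL4A5 and COL4A6 start 1308 bases apart on the X chromosome. The promoter windows of RefSeq (GRCm38.p6, 250 bases before to 50 after the start) are shown for COL4A1 and COL4A2 because their RNAs kept the narrower ratio, and for COL4A4 because its RNA separated from that of its partner. Capitals mark GC boxes (GGGCGG) and CCAAT boxes (CCAAT) on either strand. The COL4A1 window is chr8:11312777-11313076, minus strand, the COL4A2 window is chr8:11312555-11312854, plus strand, and the COL4A4 window is chr1:82586800-82587099, minus strand, and holds none of the motifs searched.
COL4A1: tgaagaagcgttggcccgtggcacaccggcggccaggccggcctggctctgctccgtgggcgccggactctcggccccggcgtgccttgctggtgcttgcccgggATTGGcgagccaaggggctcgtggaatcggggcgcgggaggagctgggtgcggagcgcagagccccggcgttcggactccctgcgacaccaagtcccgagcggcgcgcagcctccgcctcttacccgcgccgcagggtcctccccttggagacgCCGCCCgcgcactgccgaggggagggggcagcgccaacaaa
COL4A2: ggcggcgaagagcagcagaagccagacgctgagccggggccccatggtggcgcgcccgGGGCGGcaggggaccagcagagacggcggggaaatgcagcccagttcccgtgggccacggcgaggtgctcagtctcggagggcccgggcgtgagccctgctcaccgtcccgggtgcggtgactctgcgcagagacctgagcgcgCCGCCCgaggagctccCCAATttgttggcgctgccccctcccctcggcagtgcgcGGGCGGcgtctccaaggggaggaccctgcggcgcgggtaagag
COL4A4: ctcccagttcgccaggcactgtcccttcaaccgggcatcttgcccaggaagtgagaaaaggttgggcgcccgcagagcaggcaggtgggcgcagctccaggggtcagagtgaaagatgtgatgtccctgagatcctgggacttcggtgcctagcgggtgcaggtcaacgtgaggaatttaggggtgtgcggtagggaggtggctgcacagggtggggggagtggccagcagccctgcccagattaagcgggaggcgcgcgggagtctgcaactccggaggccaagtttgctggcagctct

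COL4A1 had 119, 290 and 96.9 CPM in NLS-2SA-YAP1 tumors. With YAP1-MAML2-v2 the lowest value was 44.9 CPM, the median 159 CPM and the highest 757 CPM. COL4A2 had 138, 284 and 126 CPM in NLS-2SA-YAP1 tumors, against 48.4 to 617 CPM in YAP1-MAML2-v2 tumors. Both were highest in YAP1-MAML2-v2 replicates 2 and 3 and lowest in replicate 5, and the constructs overlapped. The summed level of 9 endothelial markers was 319 and 689 CPM in those replicates 2 and 3 and 266 CPM in replicate 5. It was 1015 CPM in the intra ventricular tumor, where COL4A1 had 256 CPM and VWF alone had 441 CPM. Without VWF the endothelial sum was 288 and 653 CPM in replicates 2 and 3, 99.6 CPM in replicate 5 and 573 CPM in the intra ventricular tumor. The summed level of 8 pericyte and smooth muscle markers was 2580 and 1041 CPM in replicates 2 and 3 and 944 CPM in replicate 5; the part of vessel cells in type IV levels was not tested.

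COL4A3 had 2.95, 0.512 and 1.92 CPM in NLS-2SA-YAP1 tumors. The fusion tumors had a median of 11.8 CPM, a lowest value of 1.10 CPM and a highest of 56.7 CPM. It was over 40 CPM in YAP1-MAML2-v2 replicates 4, 5 and 6, and YAP1-MAML2-v2 replicate 3 overlapped the NLS-2SA-YAP1 values; the log2 fold change was -4.12 (SE 1.26, adjusted p 0.254 by edgeR). COL4A4 had 9.33, 24.2 and 7.19 CPM in NLS-2SA-YAP1 tumors. Across the 7 YAP1-MAML2-v2 tumors the lowest, median and highest level was 0.561, 13.3 and 97.2 CPM. It was highest in replicates 4, 2 and 6, while replicate 5, among the highest for COL4A3, was below the median for COL4A4.

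COL4A5 had 131.5, 83.2 and 84.6 CPM in NLS-2SA-YAP1 tumors. The YAP1-MAML2-v2 tumors ran from 7.05 to 101 CPM, with a median of 16.1 CPM. The 3 NLS-2SA-YAP1 values lay above all YAP1-MAML2-v2 values but the intra ventricular one, with a log2 fold change of 2.23 (SE 0.61, adjusted p 0.219 by edgeR). COL4A6 was low, at 6.55, 2.49 and 3.15 CPM in NLS-2SA-YAP1 tumors, against 0.251 to 10.6 CPM in YAP1-MAML2-v2 tumors, where replicates 3 and 7 were highest. Of the 6 basement membrane genes, 2 had a positive log2 fold change between constructs.

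Partner chains were compared as ratios of CPM per kilobase. COL6A1 to COL6A2 was the narrowest, at 0.490 to 0.959 over the 10 libraries. COL4A1 to COL4A2 ran from 0.749 to 2.38, a 3.18-fold range. It was 0.838, 0.996 and 0.749 in NLS-2SA-YAP1 tumors, against 0.904 to 2.38 in YAP1-MAML2-v2 tumors, where only replicate 5 overlapped. COL1A1 to COL1A2 ran from 0.151 in the intra ventricular tumor to 0.734 in NLS-2SA-YAP1 replicate 3, with a median of 0.553. This value depends on the transcript length chosen: by the union of annotated exons the median was 1.16, while the order of libraries is the same by construction.

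Wider ranges were seen for COL5A1 to COL5A2, from 0.107 in the intra ventricular tumor to 1.85 in NLS-2SA-YAP1 replicate 1, and for COL8A1 to COL8A2, whose lowest ratio, 0.212, was in NLS-2SA-YAP1 replicate 1 and whose highest, 25.4, was in YAP1-MAML2-v2 replicate 2 over the 9 libraries where COL8A2 was above 0. The last pairs were added after their values were seen. COL4A3 to COL4A4 had a 635-fold range, with its lowest ratio of 0.0250 in NLS-2SA-YAP1 replicate 2 and its highest of 15.9 in the intra ventricular tumor. COL4A5 to COL4A6 ran from 7.58 to 50.9. Of the head-to-head pairs, COL4A1 and COL4A2 therefore kept a narrower ratio than COL4A3 and COL4A4 in these 10 libraries, as a description without a test. The ends of the COL4A3 to COL4A4 range rest on low deposited values. These were 15 for COL4A3 in NLS-2SA-YAP1 replicate 2 and 24 for COL4A4 in the intra ventricular tumor. COL4A1 and COL4A2 had deposited values of 1343 or more in every library.

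**Figure D4:**
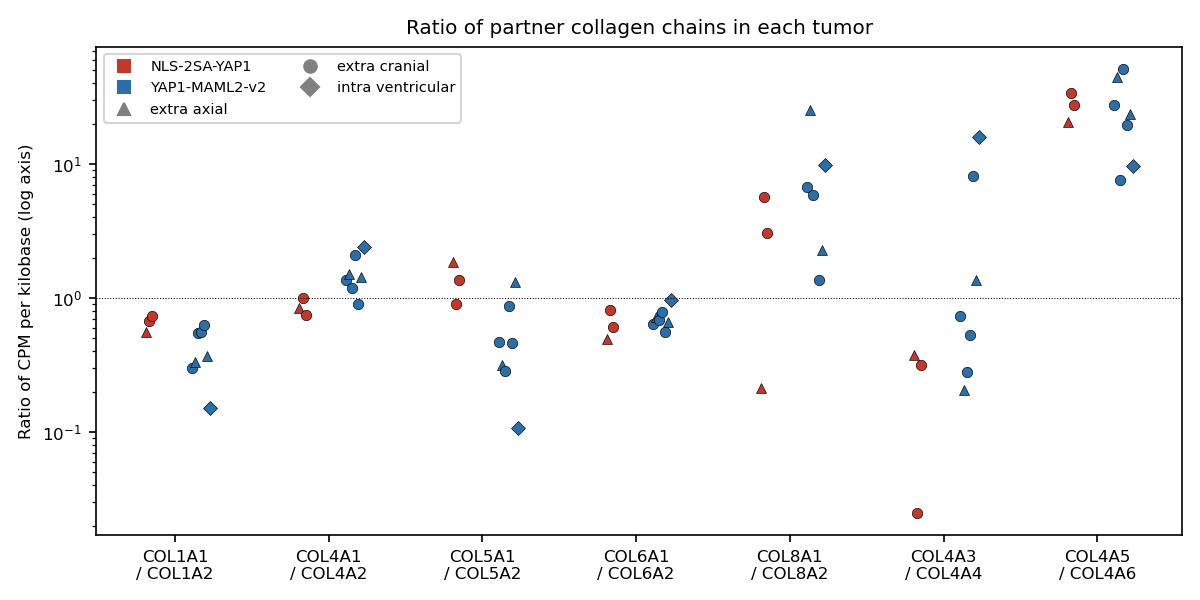
Ratio of CPM per kilobase of partner collagen chains (log axis) in every library, NLS-2SA-YAP1 (red) left of YAP1-MAML2-v2 (blue), with the region as the marker shape and a dotted line at a ratio of 1. COL6A1 to COL6A2 spans 0.490 to 0.959, whereas COL4A3 to COL4A4 spans 0.0250 to 15.9.

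Among FACITs, COL16A1 had 276, 226 and 285 CPM in NLS-2SA-YAP1 tumors. With YAP1-MAML2-v2 the lowest value was 83.8 CPM, the median 119 CPM and the highest 314 CPM. The 3 NLS-2SA-YAP1 values lay above 6 of 7 YAP1-MAML2-v2 values, the exception being the intra ventricular tumor, with a log2 fold change of 1.07 (SE 0.31, adjusted p 0.232 by edgeR). COL22A1, a FACIT of tissue junctions such as that of muscle and tendon, had 0.463, 1.71 and 1.60 CPM in NLS-2SA-YAP1 tumors. The fusion tumors had a median of 1.94 CPM, a lowest value of 0.531 CPM and a highest of 49.2 CPM. Replicates 5, 6 and 3 stood at 49.2, 30.0 and 21.1 CPM and the rest below 2 CPM, with a log2 fold change of -3.92 (SE 1.55, adjusted p 0.330 by edgeR).

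The type IX genes encode a FACIT that coats type II fibrils of cartilage. COL9A2 had 4.31, 24.1 and 8.50 CPM in extra axial tumors, in the order NLS-2SA-YAP1 replicate 1 and YAP1-MAML2-v2 replicates 2 and 6. In extra cranial tumors it had a lowest, median and highest level of 0.334, 2.34 and 24.1 CPM. NLS-2SA-YAP1 replicate 2 was as high as the highest extra axial tumor, and the log2 fold change was 2.37 (SE 1.14, adjusted p 1.0 by edgeR). COL9A3 had 141, 965 and 135 CPM in extra axial tumors and 29.3 to 443 CPM in extra cranial tumors (log2 fold change 1.04, SE 0.87, adjusted p 1.0 by edgeR). COL9A1 stayed at or below 4.95 CPM in all libraries, so the 3 chains of type IX differed widely in level: 82.0 CPM per kilobase for COL9A3 and 2.94 and 0.227 CPM per kilobase for COL9A2 and COL9A1.

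COL12A1 and COL14A1 bind the surface of type I fibrils. COL14A1 had 12.6, 354 and 32.8 CPM in extra axial tumors and 3.41 to 98.1 CPM in extra cranial tumors (log2 fold change 1.33, SE 1.19, adjusted p 1.0 by edgeR). The single high value was in YAP1-MAML2-v2 replicate 2, and without it the log2 fold change was -0.96. The same library set COL9A3, whose log2 fold change was -0.22 without it. COL12A1 ranged from 3.48 to 599 CPM, highest in YAP1-MAML2-v2 replicate 3. COL19A1 and COL20A1 did not exceed 3.18 and 5.32 CPM.

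Among network collagens, COL8A1 encodes a chain of the hexagonal lattice known from the cornea and vessel walls. It had 19.9, 736 and 256 CPM in extra axial tumors, in the order NLS-2SA-YAP1 replicate 1 and YAP1-MAML2-v2 replicates 2 and 6. In extra cranial tumors it had a lowest, median and highest level of 152, 824 and 1664 CPM. The value of 19.9 CPM lay far below that of the next lowest library, 152 CPM, and the log2 fold change was -1.83 (SE 1.10, adjusted p 1.0 by edgeR). Between constructs COL8A1 had a log2 fold change of -1.09 (SE 1.07, adjusted p 0.721 by edgeR). Its partner COL8A2 had a listed value of 0 in YAP1-MAML2-v2 replicate 4, where COL8A1 was highest, and had 16.7 to 232 CPM in the other 9 libraries. COL10A1, the collagen of hypertrophic cartilage, did not exceed 11.1 CPM.

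The multiplexins lie in basement membrane zones, and COL18A1 carries the endostatin fragment. COL18A1 had 303, 333 and 313 CPM in NLS-2SA-YAP1 tumors. Across the 7 YAP1-MAML2-v2 tumors the lowest, median and highest level was 9.16, 60.7 and 330 CPM. YAP1-MAML2-v2 replicate 3 was within the NLS-2SA-YAP1 range and the other 6 lay below 120 CPM, with a log2 fold change of 1.61 (SE 0.64, adjusted p 0.331 by edgeR). Between regions it had 303, 96.6 and 21.2 CPM in extra axial tumors and 59.0 to 333 CPM in extra cranial tumors (log2 fold change -0.85, SE 0.69, adjusted p 1.0 by edgeR). COL15A1 had 32.4, 113 and 116 CPM in NLS-2SA-YAP1 tumors, against 1.24 to 176 CPM in YAP1-MAML2-v2 tumors, and its groups overlapped.

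Transmembrane collagens were low. COL25A1, a neuronal membrane collagen known from amyloid plaques, had 0.487, 0.307 and 0.275 CPM in NLS-2SA-YAP1 tumors. The YAP1-MAML2-v2 tumors ran from 1.24 to 15.8 CPM, with a median of 2.43 CPM. The groups did not overlap, and the log2 fold change was -3.47 (SE 0.97, adjusted p 0.224 by edgeR). Of 8 neuron markers, all but TUBB3 summed to 2.59 to 4.65 CPM in NLS-2SA-YAP1 tumors, against 2.44 to 11.9 CPM in 6 YAP1-MAML2-v2 tumors. They summed to 144 CPM in the intra ventricular tumor, where COL25A1 had 1.43 CPM. TUBB3 itself was lowest in the intra ventricular tumor, at 355 CPM against 385 to 1050.5 CPM in the others. Between regions COL25A1 had 0.487, 15.8 and 2.43 CPM in extra axial tumors and 0.275 to 3.73 CPM in extra cranial tumors (log2 fold change 1.498, SE 0.78, adjusted p 1.0 by edgeR). COL23A1 spanned a 1458-fold range, from 0.0559 CPM in YAP1-MAML2-v2 replicate 4 to 81.5 CPM in replicate 3. The deposited values there were 2 and 3188, so the low end of COL23A1 is near the floor. COL13A1, known from the neuromuscular junction, ranged from 0.984 to 39.2 CPM, and COL17A1, the hemidesmosome collagen of epithelia, did not exceed 2.61 CPM.

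COL26A1, a short collagen with an EMI domain, had 40.6, 50.6 and 16.01 CPM in NLS-2SA-YAP1 tumors. With YAP1-MAML2-v2 the lowest value was 0.219 CPM, the median 1.36 CPM and the highest 11.2 CPM. The groups did not overlap, the highest YAP1-MAML2-v2 value being that of extra axial replicate 2, and the log2 fold change was 3.95 (SE 1.06, adjusted p 0.219 by edgeR). Between regions it was 1.40 (SE 1.04, adjusted p 1.0 by edgeR), and -0.97 without YAP1-MAML2-v2 replicate 2. COL7A1, the collagen that anchors epithelial basement membranes, was at 234 CPM in YAP1-MAML2-v2 replicate 3 and at 5.39 to 42.8 CPM in the other 9. COL28A1 did not exceed 8.72 CPM.

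Single tumors thus differed in which collagens they carried. YAP1-MAML2-v2 replicate 3 was the highest of 10 for 9 members, among them COL12A1, COL7A1, COL23A1, COL13A1 and COL4A1. YAP1-MAML2-v2 replicate 2 was the highest for another 9, among them COL1A2, COL5A2, COL14A1, COL9A3, COL6A3 and COL15A1. YAP1-MAML2-v2 replicate 5 was the highest for 7, namely COL6A1, COL6A2, COL6A5, COL6A6, COL17A1, COL22A1 and COL24A1, and replicate 6 was next highest for each of these 7. Of all genes tested, 13.3%, 7.38% and 11.4% were highest in replicates 2, 3 and 5, against 20.9%, 20.9% and 16.3% of the members. Skeletal muscle markers summed to 112 CPM in replicate 3 and to at most 11.2 CPM in the other YAP1-MAML2-v2 tumors, and their part in its values was not tested.

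The construct difference was also compared between regions. By edgeR's interaction term, 0 of 41 members passed an adjusted p under 0.05, where 0.00741% of all genes did, and 7 had an unadjusted p under 0.05, against 7.14% of all genes. COL20A1 was the 1 with a positive term, against 3.59% of all genes, and COL5A3, COL3A1, COL6A3, COL9A2, COL8A1 and COL15A1 were the 6 with a negative one, against 3.55%, all with an edgeR adjusted p of 0.658 or more. DESeq2 called 0 members, against 1.42% of all genes. The COL20A1 term rests on values near the floor. Its deposited values were 71, 1 and 1 in NLS-2SA-YAP1 replicates 1, 2 and 3. All interaction terms rest on the single extra axial NLS-2SA-YAP1 tumor. It had 555.5 CPM of COL3A1, against 2674 and 3650 CPM in extra axial YAP1-MAML2-v2 tumors, while extra cranial tumors had 3586 and 4802 CPM with NLS-2SA-YAP1 and 984 to 4498 CPM with YAP1-MAML2-v2.

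The intra ventricular tumor is described without a test because it was a single library. Its values lay above the range of the other 9 libraries for 6 members and below it for 13, together 44.2% of members, against 37.7% of all genes tested that were highest or lowest there. The share that was lowest was 30.2% of members and 18.3% of all genes, and the share that was highest was 14.0% of members and 19.4% of all genes. COL6A6 is counted among the 13 although its deposited value of 1 there was shared by 4 other libraries, so that only the scaling sets it lowest. COL3A1 was the farthest, at 0.818 CPM in the intra ventricular tumor, against 555.5 to 4802 CPM in the others. COL15A1 had 1.24 CPM there, against 32.4 to 176 CPM. COL6A3 had 6.40 CPM, against 89.0 to 860 CPM.

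COL5A3 had 1.05 CPM in the intra ventricular tumor, against 11.9 to 74.3 CPM, and COL4A4 had 0.561 CPM, against 4.63 to 97.2 CPM. COL1A1 was also lowest there, while COL1A2, at 1898 CPM, was within the range of the others. The 6 members above the range were COL11A2, COL19A1, COL4A6, COL11A1, COL16A1 and COL2A1. COL11A2 had 73.1 CPM, against 3.55 to 24.3 CPM, COL11A1 had 1382 CPM, against 49.0 to 1155 CPM, and COL2A1 had 367 CPM, against at most 340 CPM. COL1A2, COL11A1 and COL2A1 held the largest shares of collagen CPM there, 33.7%, 24.5% and 6.51%, not adjusted for length.

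COL3A1 is shown by its promoter window as the collagen with the widest range of those above 0 in every library. The window is chr1:45311288-45311587, plus strand (RefSeq, GRCm38.p6), and capitals mark a match to the TEAD core (CATTCC) and to a TATA box (TATAAA).
COL3A1: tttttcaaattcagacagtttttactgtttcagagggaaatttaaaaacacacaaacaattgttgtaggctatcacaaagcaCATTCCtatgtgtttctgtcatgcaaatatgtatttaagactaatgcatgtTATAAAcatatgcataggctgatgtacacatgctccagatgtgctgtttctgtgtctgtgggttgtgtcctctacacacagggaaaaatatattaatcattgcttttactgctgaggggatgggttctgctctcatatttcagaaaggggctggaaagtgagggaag

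**Figure D5:**
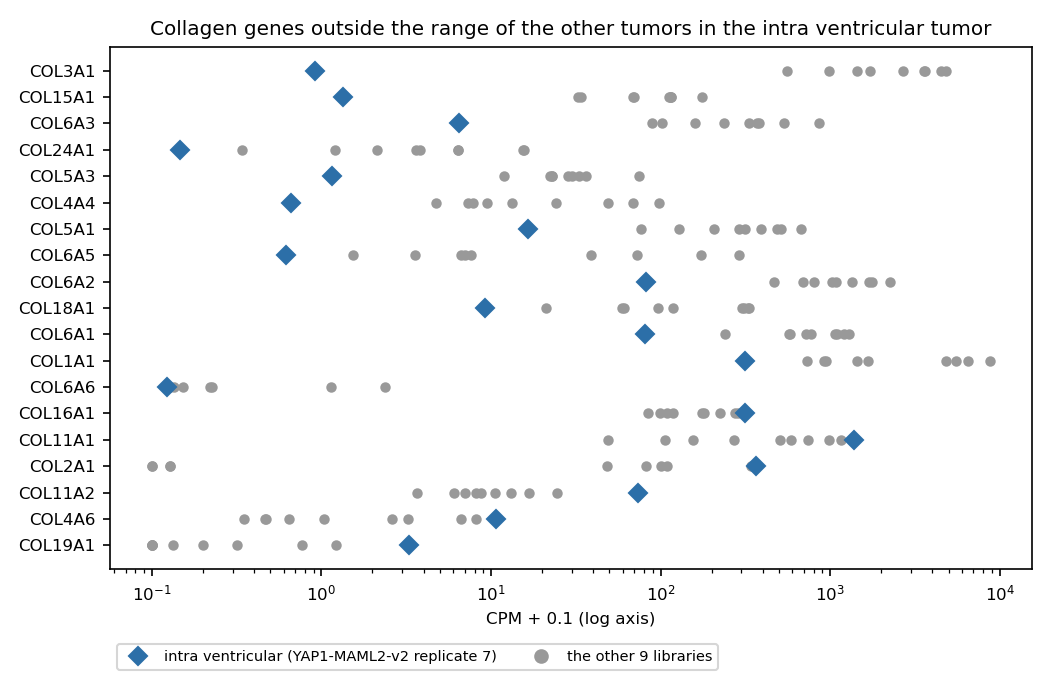
CPM + 0.1 (log axis) of the 19 collagen genes whose value in the intra ventricular tumor (blue diamonds) lay outside the range of the other 9 libraries (grey points). COL3A1 is farthest below, at 0.818 CPM against 555.5 to 4802 CPM, and COL11A2 lies above, at 73.1 CPM against 3.55 to 24.3 CPM.

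All 16 cartilage and bone markers examined were in the tables. Their summed level was 548 CPM in the intra ventricular tumor, 28.7 to 147 CPM in extra axial and 73.1 to 851 CPM in extra cranial tumors. ALPL held 783 CPM of the highest sum, that of YAP1-MAML2-v2 replicate 4. Without ALPL the sum was 203 CPM in the intra ventricular tumor, against 22.3 to 84.4 CPM in the other tumors. In the intra ventricular tumor ALPL, SOX9 and ACAN had 345, 101 and 82.7 CPM, the cartilage genes MATN1 and LECT1 had 0.444 and 0.584 CPM, and IBSP, BGLAP and MEPE were listed at 0. SOX9 and ACAN were higher there than in the other 9 libraries, where they reached 18.0 and 27.0 CPM. PTGDS, an arachnoid gene, had 8429 CPM there and at most 2841 CPM elsewhere, and DCN and LUM, proteoglycans of collagen fibrils, were lowest there, at 19.4 and 0.140 CPM. Macrophage markers also had their highest sum there, 2004 CPM, against 399 to 1182 CPM in the others. The neuron genes SNAP25 and STMN2 had 39.2 and 14.5 CPM there, against at most 1.84 and 0.128 CPM. TUBB3, of the same neuron list, was lowest there, at 355 CPM against 385 to 1050.5 CPM. The full neuron sum there, 499 CPM, was within the 390 to 1062 CPM of the others. The part of these cells in the collagen profile was not tested.

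Genes that build and read collagen were taken from 4 lists of 50 genes, of which 46 were tested, and by edgeR 0 passed an adjusted p under 0.05 in either comparison. At an unadjusted p under 0.05 there were 3 higher and 10 lower genes between constructs, together 28.3% against 13.1% of all genes (5.51% higher and 7.57% lower). Between regions there was 1, or 2.17%, against 3.03% of all genes. The median log2 fold change over the 46 was -0.23 between constructs. Of 15 genes that hydroxylate and glycosylate chains, P3H2, a prolyl hydroxylase of type IV chains, had 5.77, 2.01 and 6.37 CPM in NLS-2SA-YAP1 tumors and 5.25 to 41.1 CPM with YAP1-MAML2-v2 (log2 fold change -2.22, SE 0.68, adjusted p 0.249 by edgeR). COLGALT2, a hydroxylysine galactosyltransferase, had 18.5, 9.59 and 0.674 CPM in NLS-2SA-YAP1 tumors and 0.1003 to 2.64 CPM with YAP1-MAML2-v2 (log2 fold change 3.48, SE 1.06, adjusted p 0.249 by edgeR). Both overlapped by a single library.

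Of 8 tested genes that trim propeptides, ADAMTS3, a procollagen N-propeptidase, had 1.61, 2.22 and 2.47 CPM in NLS-2SA-YAP1 tumors and 8.89 to 87.0 CPM with YAP1-MAML2-v2 (log2 fold change -3.70, SE 0.93, adjusted p 0.189 by edgeR). TLL1, a tolloid protease that removes C-propeptides, had 0.365, 0.307 and 0.425 CPM in NLS-2SA-YAP1 tumors and 0.437 to 67.3 CPM with YAP1-MAML2-v2 (log2 fold change -5.98, SE 1.78, adjusted p 0.244 by edgeR). Neither overlapped, though in YAP1-MAML2-v2 replicate 6 TLL1 was at 0.437 CPM. In the other direction PCOLCE did not overlap, with 397, 617 and 707 CPM in NLS-2SA-YAP1 tumors and 22.55 to 338.6 CPM with YAP1-MAML2-v2. Its log2 fold change was 1.12 (SE 0.34, adjusted p 0.247 by edgeR). Over the 46 tested genes of all lists, 1 was separated higher and 2 lower, against 3.73% and 3.01% of all genes. PCOLCE2, an enhancer of C-propeptide cleavage, had the smallest region p within these lists. It had 7.38, 2.21 and 4.02 CPM in extra axial and 4.86 to 116 CPM in extra cranial tumors (log2 fold change -2.68, SE 1.09, adjusted p 1.0 by edgeR). BMP1, the main C-proteinase, had a region log2 fold change of -0.84 (SE 0.51, adjusted p 1.0 by edgeR).

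Among collagen receptors, DDR1, a collagen-binding kinase of epithelia, had 453, 331 and 237 CPM in NLS-2SA-YAP1 tumors and 36.2 to 259 CPM with YAP1-MAML2-v2 (log2 fold change 1.66, SE 0.47, adjusted p 0.224 by edgeR), overlapping through the intra ventricular tumor. LAIR1, an inhibitory leukocyte receptor for collagen, had 15.8, 16.9 and 19.0 CPM in NLS-2SA-YAP1 tumors and 13.8 to 84.9 CPM with YAP1-MAML2-v2 (log2 fold change -1.30, SE 0.46, adjusted p 0.290 by edgeR). Among folding and export genes the smallest p between constructs were those of FKBP7, a prolyl isomerase, with a log2 fold change of -1.35 (SE 0.55, adjusted p 0.342 by edgeR), and CREB3L1, a factor that drives type I collagen, with -1.78 (SE 0.77, adjusted p 0.367 by edgeR). Between regions the named genes P4HA2, PLOD3, KLHL12, CREB3L1, DDR2 and LAIR1 had log2 fold changes from -0.80 to -0.44, all with an edgeR adjusted p of 1.0.

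Promoter windows were found for 34 of 43 members (37 windows) and were searched on both strands. COL1A1, COL26A1 and COL4A3 were among the members without a window. Chromosome 18, which holds no member, was left out. The TEAD core CATTCC was in 5 of 37 (13.5%, against 14.7% of 32851 windows of the same length), and the RBPJ core TGGGAA, which can overlap it in the letters GGAA, in 11 (29.7%, against 25.6%). The AP-1 motif TGANTCA was in 1 (2.70%, against 7.81%), TATAAA in 5 (13.5%, against 13.6%) and CCAAT in 12 (32.4%, against 37.4%). The GC box GGGCGG was in 22 (59.5%, against 35.7%). A match is a description of the letters, not a bound site.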

How the data were processed

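RNA-seq was analysed in 10 mouse tumors, grouped by construct and source region as the labels give them. The authors deposited 1 table of whole numbers per tumor, counted with HTSeq against mm10 per the submitters' processing notes. Neither the aligner, annotation, strand setting and versions nor the step that gave human-style symbols is stated in the sources at hand. They were taken as estimated counts as deposited, because 1662 genes had values of 0 or 1 in a library and exceeded 100 elsewhere; the planned design had assumed plain counts, and no rounding was needed. Depth is unknown, so no counting intervals are given, and paralogous or overlapping chains may share reads.

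Genes were filtered with filterByExpr (minimum count 10, 13707 kept) and scaled by TMM. edgeR 4.0.16 in R 4.3.3 fitted construct and region as additive terms over all 10 libraries, with Benjamini-Hochberg adjustment over all genes tested and a threshold of 0.05. The intra ventricular tumor had its own region term. The interaction was fitted on 9 libraries (13487 genes). DESeq2 1.42.0, limma 3.58.1, other scalings and filters, left-out libraries and a replicate block were alternatives. The script was tested on simulated data. Lengths came from the protein-coding transcript of longest coding sequence in GENCODE M21 (mm10), to which all 43 members matched.

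Members, classes and lists were chosen with earlier results of these data known. Genes named with full values were, per comparison, the 8 members of smallest p, and the 8 of highest mean CPM per kilobase. Chain partners and the 5 farthest in the intra ventricular tumor were also named. Per processing list the 2 genes of smallest p were named, with PCOLCE added because its construct groups did not overlap. Other members were named as class examples.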

Additional observations from a re-analysis of the deposited data

Results flagged for a closer look

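On the log2 CPM scale 54 groups of 6 or 7 libraries were examined. A library stood apart from the others in 9 by Dixon's 95% criterion, which chance meets in about 1 in 20 independent groups. The groups share libraries, and class sums include members examined singly, so that rate cannot be applied to the 9. The intra ventricular tumor, replicate 7, was the low library of the YAP1-MAML2-v2 group in 6 of them: COL3A1 at 0.818 CPM (984 to 4498 CPM in the other 6), COL24A1 at 0.0467 CPM (2.02 to 15.6), COL6A2 at 81.6 CPM (799 to 2249), COL6A1 at 81.2 CPM (572 to 1290), the beaded filament sum at 170 CPM (1752 to 4201) and the multiplexin sum at 10.4 CPM (89.4 to 364). YAP1-MAML2-v2 replicate 2 was high for COL25A1, at 15.8 CPM (1.24 to 3.73). YAP1-MAML2-v2 replicate 3 was high for the transmembrane sum, at 124.5 CPM (7.24 to 22.9). Among extra cranial tumors, NLS-2SA-YAP1 replicate 2 was low for COL24A1, at 0.239 CPM (3.52 to 15.6). Both low COL24A1 values are near the floor, with deposited values of 2 in YAP1-MAML2-v2 replicate 7 and 7 in NLS-2SA-YAP1 replicate 2.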

How the results depend on the processing

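The count of members called stayed at 0 under every alternative run for the region and interaction comparisons and, between constructs, under all but DESeq2, which called 6. Over all genes, edgeR, DESeq2, limma-voom and limma on log2 CPM called 2, 674, 97 and 6 between constructs and 0, 31, 0 and 0 between regions, and edgeR and DESeq2 called 1 and 191 for the interaction. A replicate block called 56 and 16 genes and 0 members between constructs and regions. Deviations from the construct means correlated at 0.167, 0.337 and -0.072 between libraries numbered 1, 2 and 3. NLS-2SA-YAP1 replicates 1 and 2 matched best the YAP1-MAML2-v2 library of their own number, and replicate 3 matched best replicate 1. With so few numbers, whether they pair the samples cannot be settled. By exon union length the median ratio was 1.16 for COL1A1 to COL1A2 (0.553 by transcript) and 1.34 for COL6A1 to COL6A2 (0.678); class sums moved by less than their SD.

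Of the named folds, the 7 members of smallest construct p kept their sign in all 20 alternatives. They were chosen by p in the same data, so this is no independent support. Between constructs COL24A1, COL1A1, COL6A2, COL6A1, COL8A1, COL9A3 and COL11A1 also kept their sign in all 20. Signs turned for others, none past the threshold and the cause was not tested. Between constructs COL1A2 was -0.13 with the replicate block and COL3A1 was -0.0398 by limma on log2 CPM. Between regions COL1A2 was -0.0582 by limma-voom, COL1A1 0.19 with the replicate block, COL11A1 0.0649 by limma on log2 CPM, and in YAP1-MAML2-v2 libraries alone COL1A1 was 0.37, COL3A1 0.56, COL6A2 0.0472 and COL6A1 0.13. Leaving out each library in turn gave -0.33 to 0.95 for COL3A1 between constructs, and between regions -0.97 to 1.92 for COL26A1, -0.22 to 1.498 for COL9A3, -0.96 to 2.18 for COL14A1, -1.21 to 1.011 for COL1A2, -1.63 to 0.54 for COL1A1, -0.74 to 0.55 for COL3A1, -0.80 to 0.0279 for COL6A2, -0.86 to 0.11 for COL6A1 and -1.09 to 0.19 for COL11A1.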
